A study of Homo sapiens with 12 samples.

Results

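The genes described here are those whose response to interleukin-1β (IL-1β) differed between 2 pairs of microarray slides. Of 12750 genes measured on all 8 arrays compared, 1605 were chosen by that difference, 740 with the higher response in one pair and 865 with the higher response in the other. Another 1379 genes had a control signal above background in only one of the pairs and are described apart, since a fold change from an unmeasured start is only a bound. The study put human proximal tubular cells (HPTC) of 2 lines, HK-2 and RPTEC/TERT1, on 12 one-colour arrays, and each of its 4 slides held the control, the IL-1β and the empagliflozin (Empa) culture that the titles give to 1 line and 1 replicate number. All cultures were starved of serum and supplements for 24 h before treatment, so the controls carry that starvation too, and RNA was taken after 24 h. The IL-1β arrays were from cultures given 10 ng/mL of the cytokine, the Empa arrays from cultures given 500 nM of this inhibitor of sodium-glucose cotransport, and the control arrays from cultures given neither.

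HK-2 is a human proximal tubule line immortalized with papillomavirus E6 and E7 genes, and RPTEC/TERT1 is one immortalized with telomerase. Each is 1 established line grown without the vessels, leukocytes or flow of a kidney, and the lines were kept in different media. Each labelled group of line and treatment held 2 cultures (n = 2), named as biological duplicates, and with so few arrays the precision is limited. The slides did not pair by line. Pair A joins the first replicate number of HK-2 (HK-2 replicate 1) to the second of the other line (RPTEC/TERT1 replicate 2). Pair B joins the slides that remain, with the labels HK-2 replicate 2 for one and RPTEC/TERT1 replicate 1 for the other. The pairs were defined from how alike the arrays are, so the difference between them is given as a description with no test.

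The gap is visible on the control arrays. CDH1, the epithelial cadherin, was at 2.81 and 2.98 in pair A and was not above background on either slide of pair B, which puts it at least 351-fold higher in pair A. Levels here are log2 of the background-subtracted signal over the 75th percentile of the array, compared for 1 probe at a time. CDH16, a kidney cadherin, was at 6.44 and 6.90 in pair A, higher than in pair B by 5.26 on average. CDKN2A, an inhibitor of cell cycle kinases that builds up in cells with papillomavirus E7, was at 1.62 and 1.39 in pair A against 5.49 and 5.22 in pair B. The neural cadherin gene CDH2 was at -2.04 and -1.82 against 2.19 and 2.52. On CDH1, CDH16, CDKN2A and CDH2, slides that carry the same line label stood far apart and slides that carry different labels stood together. They come from a list of 10 line markers, and the others analysed differed less between the pairs. TERT was at -3.59 and -4.24 in pair A against -3.43 and -3.46 in pair B, and MDM2 at -0.69 and -0.88 against -0.95 and -1.39. VIM was at 7.02 and 7.54 against 6.21 and 5.71, CDKN1A at -1.94 and -2.26 against -2.84 and -3.11, and PAX8 at 2.76 and 2.72 against 1.46 and 1.72. The slides are named here by their labels only and no line is assigned to a pair. The line comes from the sample titles, while another label field names HK-2 as the source of every sample, and whether labels of slides were crossed was not tested.

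Genes of other cell types also moved with the pairs. Of 8 fibroblast markers, DCN and LUM were above background on both control arrays of pair B and on neither of pair A, COL1A1 was above background on both of pair A and on 1 of pair B, 5 were above background on none, and the summed log2 level of the list was -2.40 to -2.16 in pair A and 3.28 to 3.29 in pair B. Of 10 distal nephron and podocyte markers, SLC12A1 was at 4.34 and 4.99 in pair A and at the floor in pair B, with a summed level of 4.42 to 5.02 against -0.32 to -0.24. Of 7 leukocyte markers, 2 were above background on both control arrays of pair A and 5 on both of pair B, with sums of -1.01 to 0.33 and 1.62 to 1.66. CD3E, which marks T lymphocytes, was above background on none of the control arrays. For endothelium the sums were -2.38 to -2.10 and -2.41 to -1.95, 5 of 6 markers were above background on no control array, and TEK and CLDN5 were at the floor. The part of these transcripts in the responses below was not tested. In RNA of whole cultures, fewer cells of a type and less RNA per cell cannot be told apart.

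IL-1β binds a receptor on the cell surface and, through the adaptor MyD88 and the IRAK kinases, frees the transcription factor NF-κB from its inhibitors. NF-κB then switches on chemokines, cytokines, acute phase proteins and its own inhibitors, while the AP-1 factors act beside it. In the proximal tubule this program is known from inflamed and injured kidneys, where tubular cells attract leukocytes and lose transport proteins.

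The response of a slide is the log2 signal of its IL-1β array minus that of its control array. In what follows 4 values for a gene are given in the order HK-2 replicate 1, RPTEC/TERT1 replicate 2, HK-2 replicate 2, RPTEC/TERT1 replicate 1, so that the first pair of values is pair A. A gene was counted as differing where all 8 signals were well above background and unsaturated, both slides of one pair lay above both slides of the other, and the pair means differed by at least 1. The response was higher in pair A for 740 genes, which is 5.8% of the 12750 measured, and higher in pair B for 865, which is 6.78%. The count for pair A was 1176 without HK-2 replicate 1 and 1196 without RPTEC/TERT1 replicate 1, and in the deposited table of log2 values the counts were 373 and 353. Higher means the more positive value, so a gene that went down in pair A and stayed level in pair B counts as higher in pair B. Over all measured genes the pair difference, A minus B, had a median of 0.01 with quartiles of -0.40 and 0.39. Just inside the threshold stood PLEKHM1 at 1.0013 and LMNB1 at -1.0001, and just outside it SPCS3 at 0.99998 and JCAD at -0.9992.

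**Figure D1:**
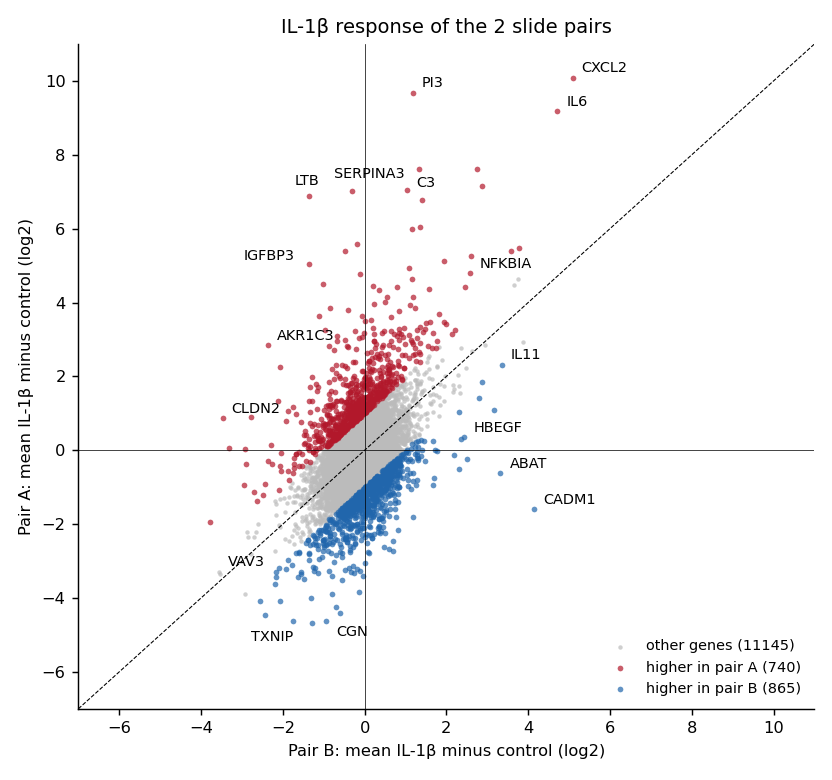
Each point is 1 of 12750 measured genes, with the mean IL-1β response (log2) of pair B on the horizontal axis and of pair A on the vertical axis. Red points are the 740 genes with the higher response in pair A, blue points the 865 with the higher response in pair B, grey points the other 11145, and the dashed line marks equal responses. Red points reach far higher on the vertical axis than any point reaches on the horizontal one.

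Responses were wider in pair A. Their SD over genes was 0.87 and 0.86 on the slides of pair A and 0.64 and 0.48 on those of pair B. The median absolute difference between the slides was 0.216 within pair A and 0.322 within pair B, against 0.368 to 0.550 between slides of different pairs. In pair A 646 measured genes were up by at least 1 on both slides and 949 were down, whereas in pair B 147 were up and 254 down. Both pairs were up for 100 genes and both down for 126. Pair A was up while pair B was flat, under 0.5 either way on both slides, for 222 genes, and down while pair B was flat for 296. Pair B was up while pair A was flat for 19 genes and down for 31.

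Of the 740 genes higher in pair A, 419 were up on both its slides, and 184 of those were flat in pair B. Pair B was down on both slides for 69 of the 740. Of the 865 genes higher in pair B, 529 were down on both slides of pair A, 255 of them flat in pair B, and 33 were up on both slides of pair B. The typical gene higher in pair B was therefore one that went down in pair A.

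The 12 genes with the widest gap between any slide of pair A and any slide of pair B, with pair A higher, were led by host defence genes. PI3 encodes elafin, a secreted inhibitor of neutrophil elastase, and its probe lies at chr20:43804645-43804704 of hg19. On the control arrays its level was -2.68, -3.52, -2.64 and -3.70, and on the IL-1β arrays 6.87, 6.30, -2.00 and -1.98. All 4 cultures started low, and the 2 IL-1β arrays of pair A alone ended among high signals. PI3 was 823-fold higher with IL-1β in pair A and 2.26-fold higher in pair B. LTB, which encodes lymphotoxin-β, a membrane cytokine of the tumour necrosis factor family, had control levels of -0.22, 0.15, 0.89 and 1.06 and responses of 7.09, 6.67, -1.15 and -1.58. Its probe lies at chr6:31548335-31548394 of hg19 on the minus strand. SERPINA3, the acute phase inhibitor α1-antichymotrypsin, responded by 6.97, 7.07, -0.54 and -0.05. In pair A this is 118-fold for LTB and 130-fold for SERPINA3, while neither was higher with IL-1β on a slide of pair B.

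IL4I1, a secreted amino acid oxidase made by immune cells, responded by 7.81, 7.41, 1.16 and 1.51. NEURL3, a ubiquitin ligase gene, responded by 6.75, 6.80, 1.91 and 0.91. TNFRSF6B, the decoy receptor for Fas ligand, responded by 3.85, 3.85, -0.85 and -0.84. TMEM74B and SNPH, a mitochondrial anchor known from axons, had pair differences of 5.88 and 4.89. In none of these 5 genes did the slides of a pair differ by as much as the pairs did, which a choice by the widest gap favours.

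Of these 12 genes, IGFBP3, IL32 and C3 started furthest apart, with a control level of pair A minus pair B of -4.64, -4.33 and -4.21. IGFBP3, a carrier of insulin-like growth factors, was at -2.95, -2.95, 1.24 and 2.15 on the control arrays and at 2.17, 2.03, 0.03 and 0.64 on the IL-1β arrays. IL32, a proinflammatory cytokine, was at -1.25, -1.04, 3.23 and 3.13 before and 4.52, 4.33, 2.83 and 3.17 after. C3, the central protein of complement, went from -1.76, -0.49, 3.18 and 2.99 to 5.95, 5.89, 3.99 and 4.25. Pair B held the higher signal of all 3 genes without IL-1β and pair A with it. AKR1C3, an enzyme that reduces steroids and prostaglandins, spread the other way, from 2.58, 3.04, 0.14 and 0.13 to 5.59, 5.72, -2.08 and -2.39.

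**Figure D2:**
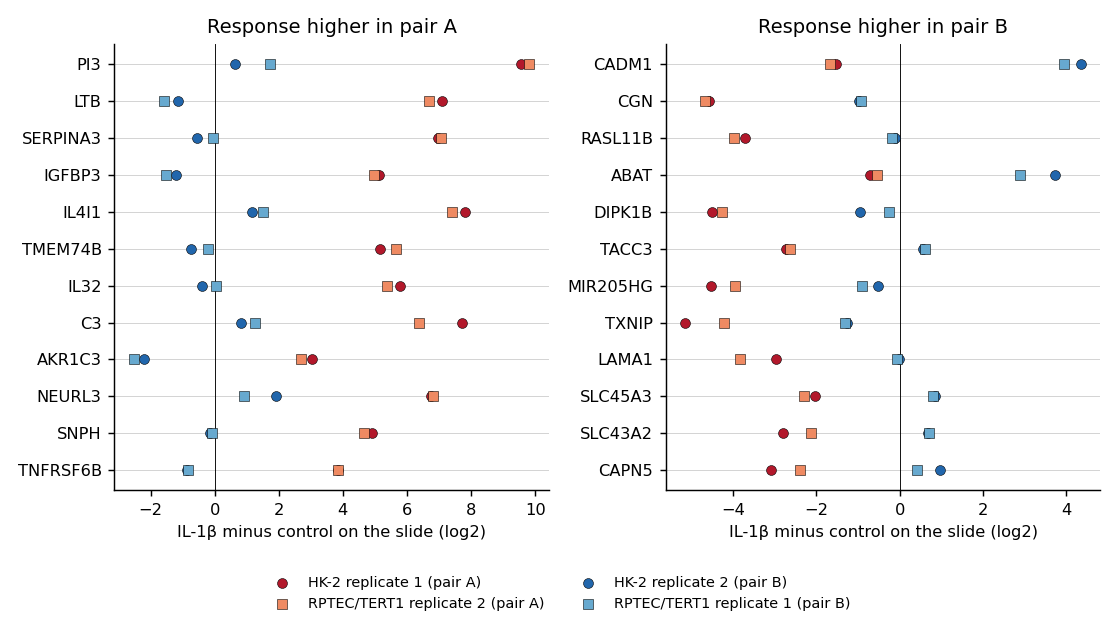
Each row is 1 gene and each point the IL-1β response (log2, IL-1β minus control) of 1 slide, circles for slides labelled HK-2 and squares for RPTEC/TERT1, reds for pair A and blues for pair B. The left panel holds the 12 genes with the widest gap in favour of pair A and the right panel the 12 with the widest gap in favour of pair B. In each row the red points stand apart from the blue ones, whatever their line label, as the rule that chose the genes requires.

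The 12 genes with the widest gap in favour of pair B were mostly genes that went down in pair A. CADM1, a cell adhesion molecule of the immunoglobulin superfamily whose probe lies at chr11:115044427-115044486 of hg19 on the minus strand, had the largest difference. Its control levels were 2.69, 2.83, -0.65 and -0.43 and its IL-1β levels 1.16, 1.17, 3.70 and 3.53. It was 3.03-fold lower with IL-1β in pair A and 17.8-fold higher in pair B, and the order of the pairs turned over. ABAT, the transaminase that breaks down the transmitter GABA, responded by -0.70, -0.54, 3.74 and 2.90. CADM1 and ABAT were the pair among these 12 that gained more than 1 on both slides of pair B.

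CGN encodes cingulin, a cytoplasmic protein of tight junctions. Its control levels were 2.53, 2.66, -1.41 and -1.57 and its IL-1β levels -2.05, -2.03, -2.38 and -2.51. It was 24.8-fold lower with IL-1β in pair A, to about the level where pair B already stood, and 1.93-fold lower in pair B. RASL11B, a small GTPase gene, showed the same shape with control levels of 2.04, 1.77, -2.74 and -2.69 and responses of -3.72, -3.98, -0.10 and -0.18.

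TXNIP, the inhibitor of thioredoxin that rises with glucose, was at 3.83, 3.92, 4.71 and 4.68 on the control arrays. Its control level of pair A minus pair B was -0.82. Its responses were -5.15, -4.21, -1.27 and -1.30, so it was down in both pairs but 25.6-fold in pair A and 2.44-fold in pair B. LAMA1, a laminin chain of the tubular basement membrane, responded by -2.97, -3.83, -0.02 and -0.07, and TACC3, a spindle protein, by -2.72, -2.64, 0.56 and 0.61. MIR205HG, the host transcript of a microRNA, responded by -4.52, -3.95, -0.51 and -0.91. The pair differences of DIPK1B, CAPN5 (a calpain protease), SLC43A2 (an amino acid transporter) and SLC45A3 were -3.78, -3.43, -3.17 and -2.98.

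**Figure D3:**
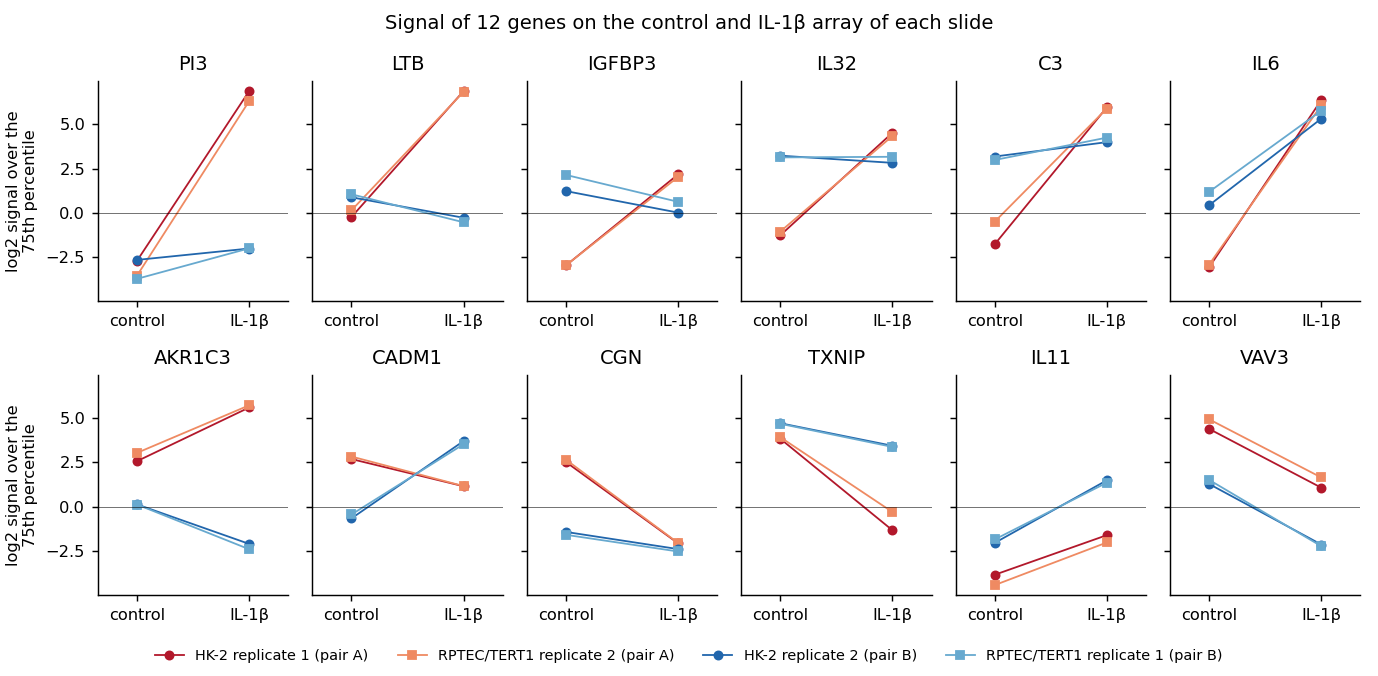
Each panel is 1 gene, with its log2 signal over the 75th percentile on the control array (left) and the IL-1β array (right) of each slide, joined by a line (reds pair A, blues pair B). Lines of the pairs cross for LTB, IGFBP3, IL32, C3, IL6 and CADM1, open out for AKR1C3, close in for CGN and run side by side for VAV3, whose pair responses differed by 0.28.

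Promoters are shown for genes that moved together on the slides of a pair. The 250 bases before the RefSeq start of the first 2 genes of each direction that have an entry are shown on GRCh38.p14, with matches to the κB consensus, the letters NF-κB dimers favour, in capitals. The LTB promoter is at chr6:31582426-31582675 (minus strand), that of SERPINA3 at chr14:94612141-94612390 (plus), that of CGN at chr1:151511137-151511386 (plus) and that of RASL11B at chr4:52862067-52862316 (plus).
LTB: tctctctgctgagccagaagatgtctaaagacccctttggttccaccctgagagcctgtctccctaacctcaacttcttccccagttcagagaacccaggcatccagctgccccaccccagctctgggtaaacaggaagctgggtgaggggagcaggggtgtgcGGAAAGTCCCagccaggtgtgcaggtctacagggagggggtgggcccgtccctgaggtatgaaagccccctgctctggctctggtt
SERPINA3: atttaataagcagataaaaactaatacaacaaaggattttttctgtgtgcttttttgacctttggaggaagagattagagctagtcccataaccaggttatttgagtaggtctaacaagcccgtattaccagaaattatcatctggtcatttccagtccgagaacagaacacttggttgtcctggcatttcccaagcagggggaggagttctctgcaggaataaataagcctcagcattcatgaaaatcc
CGN: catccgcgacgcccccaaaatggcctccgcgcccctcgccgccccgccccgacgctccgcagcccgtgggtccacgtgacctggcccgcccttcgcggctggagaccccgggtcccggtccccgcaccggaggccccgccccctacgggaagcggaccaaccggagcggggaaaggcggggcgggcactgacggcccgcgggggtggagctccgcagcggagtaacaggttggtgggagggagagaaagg
RASL11B: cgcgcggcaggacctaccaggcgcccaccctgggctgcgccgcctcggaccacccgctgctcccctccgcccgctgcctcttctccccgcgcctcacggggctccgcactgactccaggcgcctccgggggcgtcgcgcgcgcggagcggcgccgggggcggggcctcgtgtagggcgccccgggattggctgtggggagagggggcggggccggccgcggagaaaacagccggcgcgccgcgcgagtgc
LTB held 1 match, whose first base lies 86 bases before the start, and the other promoters shown held none in this window. On both strands the κB consensus was found in 15.2% of the promoters of genes higher in pair A (79 of 521 with an entry), 12.4% of those higher in pair B (83 of 672), 11.6% of those of all measured genes (1076 of 9253) and 9.57% of all 27305 promoters of the same length. The AP-1 letters TGANTCA were found in 6.91%, 4.91%, 3.87% and 6.60%. A match is a description of letters and not a bound site.

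The genes of the pathway were followed through 27 lists, 5 of them cell type markers. Each list's count stands beside the background of 5.8% higher in pair A and 6.78% higher in pair B. The lists were chosen with earlier results of these data known, so a count above the background describes the list and tests nothing. Of 14 measured genes of IL-1 receptor signaling, IRAK2 alone was higher in pair A and none was higher in pair B, with a median difference of 0.10. IRAK2, a kinase next to the receptor, responded by 5.35, 4.89, 2.31 and 1.58. The receptor accessory chain IL1RAP responded by 1.80, 1.83, 1.51 and 1.08, and the signaling ubiquitin ligase TRAF6 by 0.23, -0.15, -0.08 and -0.02. Neither of the last 2 genes met the rule. IRAK3, a brake on the pathway, was above background on the control arrays of pair B only.

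Among NF-κB subunits and feedback genes 10 of 16 measured were higher in pair A and none in pair B, with a median difference of 1.62 against 0.01 for all genes. The subunit gene NFKB1 responded by 3.21, 3.01, 1.26 and 0.92, and its partner RELB by 3.72, 3.35, 0.43 and -0.10. NFKBIA, the inhibitor that holds NF-κB in the cytoplasm, responded by 4.77, 4.81, 2.99 and 2.19, which is 27.7-fold in pair A and 6.01-fold in pair B. ZC3H12A, a nuclease that degrades cytokine messages, responded by 5.36, 5.45, 3.69 and 3.49. NFKB2, NFKBIB, NFKBID, NFKBIE, NFKBIZ and the probe named MIR146A, not taken here for the mature microRNA, also stood higher in pair A. RELA, with 0.99, 0.67, -0.15 and 0.09, and REL, with 1.05, 0.62, 0.66 and 0.57, did not meet the rule.

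All 3 measured chemokines were higher in pair A. CXCL2, which attracts neutrophils, responded by 9.97, 10.21, 5.48 and 4.69, a 1090-fold gain in pair A and a 34.0-fold gain in pair B. CX3CL1, the membrane-bound fractalkine, responded by 2.69, 2.57, 0.13 and 0.00, and CXCL16 by 1.36, 1.55, -0.43 and 0.08. Most other chemokines were dim or saturated on some array. CXCL1, whose probe may also bind its close copies CXCL2 and CXCL3, was saturated on both IL-1β arrays of pair A and at least 205-fold higher there, and responded by 4.74 and 4.87 in pair B. CXCL5 was at least 48.9-fold higher in pair A, again saturated, with 3.22 and 3.32 in pair B. CCL5 was at least 96.9-fold higher with IL-1β in pair A and not well above background on any control or IL-1β array of pair B.

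Of 12 measured cytokines and growth factors, 6 were higher in pair A and 3 in pair B. IL6, the inducer of the acute phase response, had control levels of -3.05, -2.90, 0.44 and 1.20 and responses of 9.41, 8.95, 4.87 and 4.56. Its IL-1β levels were within about 1 log2 unit on all 4 slides, while its control levels were lower in pair A. BMP2, a bone morphogenetic protein, responded by 4.58, 4.28, 0.99 and 0.60, and IL23A, a subunit of interleukin-23, by 2.75, 2.82, -0.15 and -0.66. AREG, CSF1 and IL32 made up the 6. In the other direction stood IL11, a cytokine of the interleukin-6 family, with 2.23, 2.40, 3.52 and 3.19, HBEGF, a ligand of the epidermal growth factor receptor, with 0.48, 0.21, 2.61 and 2.27, and VEGFA, the vascular growth factor, with -0.63, -0.75, 0.62 and 0.72.

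Complement and acute phase genes had the median difference of 3.69 over 9 measured genes, of which 6 were higher in pair A and none in pair B. Besides C3 and SERPINA3 these were C1R (4.48, 4.39, 0.36 and 0.06), C1S (3.77, 3.49, 0.14 and -0.26), SERPINA1, the inhibitor α1-antitrypsin (3.11, 3.24, 0.17 and 0.68), and SAA1, serum amyloid A (6.93, 7.41, 2.64 and 3.11), whose probe may also bind its near-identical copy SAA2. C1R and C1S encode the proteases that open the classical complement pathway. All 4 measured antimicrobial genes, DEFB1, DEFB4A, IL4I1 and PI3, were higher in pair A. The defensin DEFB4A, which has a near-identical gene copy, responded by 7.12, 8.10, 3.50 and 2.01.

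Of 24 measured interferon-stimulated genes 10 were higher in pair A and 1 in pair B, with a median difference of 0.87. The transcription factor IRF1 responded by 2.81, 3.48, 0.06 and 0.39 and IFI27 by 4.04, 3.57, -0.21 and -0.62. IFIT1, which binds viral RNA, was down on all slides with responses of -2.67, -3.90, -2.04 and -2.29 and was the gene higher in pair B. Among adhesion molecules 2 of 9 were higher in pair A, including ICAM1, the ligand of leukocyte integrins, with 3.80, 3.42, 0.52 and 0.75. Of 10 STAT3 and SOCS targets 4 were higher in pair A and 1, SOCS1, in pair B, and of 19 AP-1 and immediate early genes 7 and 1.

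**Figure D4:**
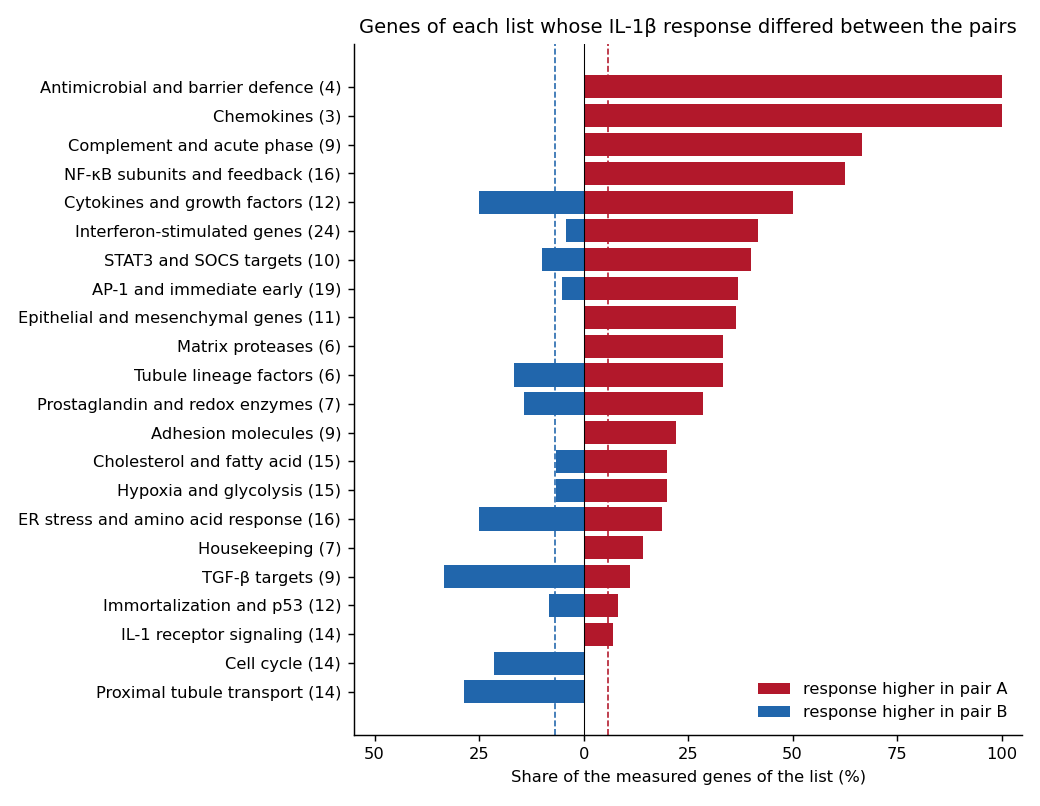
Bars give the share of the measured genes of each list (number in parentheses) whose IL-1β response was higher in pair A (red, to the right) or in pair B (blue, to the left), and dashed lines the shares over all 12750 genes, 5.8% and 6.78%. Host defence lists extend furthest to the right, while cell cycle and proximal tubule transport genes have bars to the left alone. Lists with under 3 measured genes are left out. The lists were chosen with earlier results of these data known, so the dashed lines are no test of a list.

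Proximal tubule transport genes were split. Of 14 measured proximal tubule transport genes none was higher in pair A, 4 were higher in pair B and 10 did not meet the rule, with a median difference of 0.03. SLC3A1, a subunit of the cystine carrier, had control levels of 5.44, 5.45, -2.41 and -2.21 and responses of -4.17, -4.00, -2.05 and -2.09. SLC4A4, the basolateral bicarbonate cotransporter, responded by -3.79 and -4.01 in pair A and by a mean of -0.79 in pair B, and DPP4, a brush border peptidase, responded by -1.36, -1.59, 0.10 and -0.15. ABCB1 was the last of the 4. The endocytic receptor LRP2 responded by -2.37, -2.04, -2.70 and -2.64, a pair difference of 0.46. Outside the measured genes, the brush border peptidase ANPEP responded by 2.26 and 2.22 in pair A and was not well above background in pair B, while the glucose carrier SLC2A2 was at least 21.3-fold lower with IL-1β in pair B and not well above background in pair A.

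Claudins and lineage factors divided. CLDN2, the cation channel of proximal tight junctions, responded by 0.66, 1.08, -3.60 and -3.34 from control levels between 1.69 and 2.64 on all slides, and was 11.1-fold lower with IL-1β in pair B. CLDN1 responded by 2.59, 2.26, 0.96 and 0.67. LHX1, a kidney patterning factor, was at 1.59, 1.73, 1.38 and 1.40 on the control arrays and responded by -3.42, -3.02, -0.08 and -0.29. PAX8, a factor that marks renal epithelium, responded by 1.22, 1.06, -0.34 and -0.13.

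Among 14 measured cell cycle genes none was higher in pair A and 3 were higher in pair B. CDK1, the kinase of mitotic entry, responded by -0.28, -0.17, 1.46 and 1.11 from control levels of -3.18, -3.37, 1.38 and 1.24, and CCNB2 and CCND1 were the others. Of the 25 cell cycle genes that passed the filter, 7 were above background on the control arrays of pair B only, beside 5.33% of all genes. PHGDH and PSAT1, enzymes of serine synthesis, were also higher in pair B, with responses of -2.46, -2.77, -0.82 and -0.31 and of -1.90, -2.53, 0.46 and 0.18. Of the remaining lists, TGF-β targets had 1 gene higher in pair A and 3 in pair B of 9, cholesterol genes 3 and 1 of 15, hypoxia genes 3 and 1 of 15, endoplasmic reticulum stress genes 3 and 4 of 16, matrix proteases 2 and 0 of 6, prostaglandin and redox enzymes 2 and 1 of 7, p53 genes 1 and 1 of 12, and housekeeping genes 1 and 0 of 7. Epithelial and mesenchymal genes had 4 and 0 of 11 and tubule lineage factors 2 and 1 of 6. Of the 13 tubule lineage factors that passed the filter, 6 were above background on the control arrays of pair A only, beside 2.96% of all genes.

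In 15 measured genes, 0.118% of all, one pair was up by at least 1 on both slides and the other down by at least 1 on both. Pair A was the one that went up for 13 of them. DEFB1, an epithelial defensin, responded by 2.03, 2.48, -1.43 and -2.70, and beside it stood LTB, IGFBP3 and AKR1C3 with the values given above. CADM1 and a transcript without a gene symbol went up in pair B and down in pair A. Also among the 15 were ID2 and ID3, inhibitors of basic helix-loop-helix factors, and ID3 responded by 1.94, 2.04, -1.41 and -1.16.

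Where the pairs stood before IL-1β differed between the sets. Of the genes higher in pair A, 30.7% were at least 1 lower in pair A than in pair B on the control arrays and 14.6% at least 1 higher, against 11.7% and 15.0% of all measured genes. On the IL-1β arrays 6.89% were lower and 58.4% higher, and the median moved from -0.28 to 1.21. Of the genes higher in pair B, 43.4% were at least 1 higher in pair A on the control arrays and 10.5% lower, and on the IL-1β arrays 11.9% were higher and 40.7% lower, with a median that moved from 0.78 to -0.65. The control arrays enter the response, so part of this follows from the rule. The Empa arrays do not enter it, though the pairs were formed from likeness among arrays. On them 30.2% of 691 genes higher in pair A were lower in pair A and 17.4% higher, against 13.2% and 19.6% of 12392 measured genes, and of 850 genes higher in pair B 42.7% were higher in pair A and 12.9% lower.

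**Figure D5:**
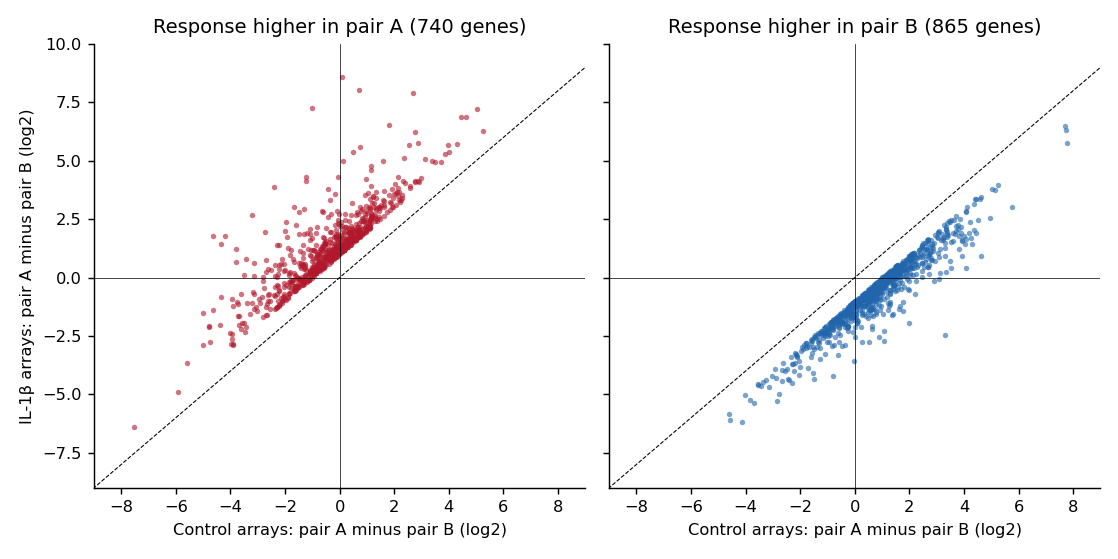
Each point is 1 gene of the 740 higher in pair A (left, red) or the 865 higher in pair B (right, blue), with the level of pair A minus pair B (log2) on the control arrays on the horizontal axis and on the IL-1β arrays on the vertical axis. The dashed line marks no change. Red points lie above it and blue points below it by construction, and the median of the red points goes from -0.28 to 1.21 and that of the blue ones from 0.78 to -0.65.

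For 493 genes, 2.96% of the 16631 that passed the filter, the control signal was well above background on both slides of pair A and neither of pair B, and for 886, 5.33%, the reverse held. A bound sets a dim signal at the lowest signal well above background on its array or its own, whichever is higher. CCL2, the monocyte attractant MCP-1 that the study followed, has its probe at chr17:32584050-32584109 of hg19. Its control levels were -0.11 and -0.14 in pair A and not well above background in pair B, at least 55.3-fold apart. Its IL-1β arrays read 7.25 and 7.45 in pair A, both saturated, and -1.44 and -2.57 in pair B, so CCL2 was at least 177-fold higher with IL-1β in pair A and at least 15.0-fold higher in pair B. All 4 slides moved up, and the IL-1β levels of the pairs did not come near each other.

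CCL20, which attracts lymphocytes and dendritic cells, was the reverse case. It was not well above background on the control arrays of pair A and at -2.84 and -2.38 in pair B, and reached 5.37 and 5.41 in pair A and 4.41 and 4.56 in pair B. That is at least 2223-fold in pair A, beside measured responses of 7.24 and 6.95 in pair B. LCN2, the injury marker lipocalin-2, was likewise at least 1597-fold higher with IL-1β in pair A and responded by 2.69 and 2.90 in pair B, and the colony-stimulating factor CSF2 at least 715-fold with 4.33 and 4.21. In these genes pair B had signal without IL-1β and pair A had none above background until it was given.

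Some of the other genes had no measured counterpart in the second pair, and some rose in both pairs. TNFRSF11B, the decoy receptor osteoprotegerin, responded by 6.66 and 6.80 in pair A, LIX1 by -6.23 and -6.12, and the chemokine CXCL14, saturated on both control arrays, was at least 62.1-fold lower with IL-1β, while in pair B none of them was well above background on any control or IL-1β array. INHBA, a subunit of activin, responded by 4.01 and 3.79 in pair B and was not well above background in pair A. PLPP3, a lipid phosphatase, responded by 6.18 and 6.17 in pair A and was at least 7.07-fold higher in pair B. SLPI, an inhibitor of leukocyte proteases, responded by 5.72 and 5.90 in pair A and was measured only in part in pair B. In pair B the plasminogen activator PLAT responded by 3.25 and 3.36 and the secretory chaperone SCG5 by 4.36 and 4.43, beside bounds of at least 15.2-fold and 18.7-fold in pair A. The control levels of SCG5 were -5.16, -3.89, -3.69 and -3.93, so the pairs overlapped in level and differed in detection.

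Other genes had pair responses close to each other. The mean response over the 4 slides, which makes no use of the pairs, passed an adjusted p of 0.05 in limma with the slide as a block for 353 genes up (2.12% of 16631) and 757 down (4.55%). Among the genes chosen for their pair difference, 40 of the 740 and 56 of the 865 passed, beside 1110 of all 16631. The chosen genes come from the 12750 measured on all 8 arrays, while the 16631 include dim and saturated genes, so the bases are not alike. The residual of this test contains the pair difference, so a wide one enlarges the SE and makes a pass less likely. Without the slide block 0 genes passed in limma, with 1074 at an unadjusted p under 0.05. Without HK-2 replicate 1 there were 20 up and 19 down, without RPTEC/TERT1 replicate 2 there were 22 and 29, and without HK-2 replicate 2 or RPTEC/TERT1 replicate 1 there were 0, with 4558 and 4020 at an unadjusted p under 0.05. The genes that follow passed with all 8 signals above background and a pair difference under 0.3. A small pair difference lowers the residual of the mean test, so their SE and adjusted p are small partly by this choice. EDN2, an endothelin, fell by 3.44 on the log2 scale (SE 0.18, limma adjusted p = 0.00653), with responses of -3.49, -3.23, -3.13 and -3.91. VAV3, a guanine nucleotide exchange factor, fell by 3.43 (SE 0.15), and RAB17, a GTPase of polarized epithelium, fell by 2.80 (SE 0.15). The receptor kinase GRK5 rose by 2.90 (SE 0.16), PPP1R3C, a glycogen-targeting subunit, by 2.66 (SE 0.14), CCN3 by 2.35 (SE 0.14) and SEMA3C by 2.15 (SE 0.28), and KLHL14 fell by 2.07 (SE 0.23).

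EDN1, which encodes the vasoconstrictor ET-1 and which the study followed, had control levels of 1.42, 1.31, -3.95 and -4.28 and responses of 0.62, 1.23, 1.46 and 1.28. Its probe lies at chr6:12296672-12296731 of hg19. The pairs differed by 5.48 in control level and by -0.45 in response, and the mean response was 1.15 (SE 0.19, limma adjusted p = 0.035). CCL2 had a mean of 5.83 (SE 0.73, limma adjusted p = 0.022), a value that includes saturated and dim signals.

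The contrasts that the labels give picked out no gene. The difference in IL-1β response between slides labelled HK-2 and slides labelled RPTEC/TERT1 passed for 0 of 16631 genes in limma (0%), with 191 at an unadjusted p under 0.05 and a smallest adjusted p of 1.0. The difference between the replicate numbers, which coincide with the 2 scan days, also passed for 0 genes (0%), with 109 at an unadjusted p under 0.05. Each pair holds 1 slide of each label and of each scan day, so the residual of these tests contains the pair difference. The rule fixes the sign of the difference within each scan day and label and its mean over them, so only its size there is described. Within the first scan day 572 of the 740 genes and 627 of the 865 differed by at least 1 in their direction, and within the second 648 and 774. Between the slides labelled HK-2 the counts were 659 and 771, and between those labelled RPTEC/TERT1 583 and 623. The pair difference of PI3 was 7.83 on the first scan day and 9.18 on the second, and that of CADM1 -5.49 and -6.01.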

How the data were processed

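RNA of the cultures was labelled with Cy3, per the labels, and hybridised to Human GE 4x44K v2 arrays, and the deposited scanner files were made with Agilent Feature Extraction 9.5.3.1. The authors deposited each spot's background-subtracted signal intensity with its flags, and a table of log2 values of the same arrays, used as an alternative. Probe positions are on hg19, per the file headers.

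Control spots and outlier spots were left out, spots of a probe averaged, signals below 1 set to 1, and each array divided by its 75th percentile (298 to 765 signal units on the 8 arrays) before log2. A probe was kept if well above background on all arrays of at least 1 of 4 groups, slide pair by treatment. The filter thus used the pairs, and a gene above background in 1 pair alone could pass. The brightest kept probe stood for a gene, which left 16631 of 25965 gene names. On each array 53.5 to 62.4% of probes were well above background and 19 to 215 were saturated. The IL-1β array of HK-2 replicate 2, in pair B, had the highest value of all 3 ranges, with a percentile of 765 against 358 on its control array. Its part in the narrower responses of pair B was not tested. Of the genes kept, 12945 were detected on all 8 arrays and 197 had a saturated signal. Differences within slides were taken in Python 3.11.15 (pandas 2.3.3), and limma 3.58.1 in R 4.3.3 fitted slide and treatment, alone or with the labelled line or replicate number, with Benjamini-Hochberg adjustment over all genes. The scripts were tested on simulated data.

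The slide stands for line and replicate number, and pairs the arrays of a replicate, as the labels and the slide layout give. Deviations of the control and IL-1β array of a slide from their group means correlated over genes at 0.805 for HK-2 and 0.823 for RPTEC/TERT1. Slides with the same line label belong to different pairs, so these deviations carry the pair difference. The correlations therefore do not show a pairing of arrays apart from it. P-values measure the spread of the response between these slides, which contains the difference between the pairs.

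Genes and lists were chosen with earlier results of these data known. The text names, by rule, the 12 genes per direction with the widest gap between slides of different pairs, the 5 opposite genes with the largest smaller response, the 6 genes per direction with the largest response among those detected at baseline in 1 pair, the 8 largest mean responses with a pair difference under 0.3, list genes, CCL2 and EDN1. List genes without a call are named only for comparison, after their values were seen, as are LCN2, CXCL1, CXCL5 and CCL5. Of 505 list entries 3 were not analysed here. Some genes that the rules pick are not reported here. The proximal tubule markers were read through the transport list. Promoters are RefSeq's, on GRCh38.p14, with 521 of 740 and 672 of 865 genes matched.

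Alternatives were quantile normalization, normexp background correction with an offset of 50 followed by quantile normalization, the authors' table, no filter, a filter on all 8 arrays, every probe, outlier spots kept, a floor of 5, a minimum difference of 1.5 or 2, saturated genes kept, the Empa array as reference, each slide left out, and no replicate block.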

Additional observations from a re-analysis of the deposited data

Results flagged for a closer look

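In 15 genes both slides of one pair moved by at least 1 in one direction and both slides of the other pair in the opposite direction. The difference was not tested, since it chose the genes. The responses of pair A minus pair B, for the genes reported here, were 8.24 for LTB, 6.41 for IGFBP3, 5.22 for AKR1C3, 4.73 for LYPD1, 4.32 for DEFB1, 3.47 for ID2, 3.27 for ID3, 3.06 for TAMALIN, 3.00 for CYRIA, 2.93 for LRRC61, 2.76 for PLA1A and 2.62 for FBXO32, all with pair A up. They were -5.75 for CADM1 and -2.99 for the transcript ENST00000607314, both with pair B up.

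LYPD1 had responses of 3.56, 3.69, -1.01 and -1.21 in the order used above, and ID2 had 1.34, 1.34, -1.64 and -2.62. FBXO32, which encodes a ubiquitin ligase known from muscle wasting, had 1.60, 1.06, -1.04 and -1.53. The phospholipase gene PLA1A had 2.01, 1.20, -1.01 and -1.31.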

How the results depend on the processing

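Among the other scalings, filters, tables and the Empa reference, where calls were matched by gene, none called a gene the other way except when every probe was kept, where other probes of 3 genes did. The 740 genes higher in pair A became 469 with normexp and quantile normalization together, 373 in the authors' table, 2778 without a filter on dim probes, 1230 with the Empa array as reference, and 316 and 158 at a minimum difference of 1.5 and 2. The 865 higher in pair B became 484, 353, 2013, 1373, 281 and 108 under the same alternatives. Of the genes called, 62.8% and 53.9% were called again with normexp and quantile normalization together, 92.3% and 91.7% with quantile normalization alone, 49.5% and 38.2% in the authors' table and 68.8% and 69.2% with the Empa reference. The cause of these shifts was not tested, apart from the stricter minimum and the missing filter, which change how many genes can pass. With 1 slide left out, which leaves a pair with 1 slide, the counts over the same measured genes ranged from 689 to 1196 and from 743 to 1238.

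For the mean response, limma's 353 genes up became 548 with normexp and quantile normalization together and 38 without a filter, and the 757 down became 452 in the authors' table and 79 without a filter. Leaving out a slide gave 0 to 22 up and 0 to 29 down, and without the replicate block 0 genes passed in either direction. The contrasts of the labelled lines and of the replicate numbers stayed at 0 genes under every alternative that was run, and the line contrast was also at 0 without the replicate block. Of 586 values of named genes under alternatives, 119 pair differences moved by more than the spread between slides and none reversed. Saturation sets a lower limit on the responses of CCL2, CXCL1 and CXCL5 in pair A, and signals near background limit those of genes dim in 1 pair.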

Other observations

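Genes of the matrix and of growth factor signaling also stood apart between the pairs. PLAUR, the urokinase receptor, responded by 3.93, 3.59, 0.59 and 1.11 in the order used above, and TIMP1, an inhibitor of matrix proteases, by 1.08, 1.10, -0.58 and -0.18. In the other direction THBS1, an activator of latent TGF-β, responded by -1.65, -1.05, 0.44 and 1.07, and SMAD7, a brake on TGF-β signaling, by -1.36, -1.15, 0.19 and 0.61. PDGFB, a growth factor for mesenchymal cells, responded by -2.38, -1.84, -0.12 and 0.11. TGFB1 itself responded by 0.57, 0.51, -1.25 and -0.66.

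Immediate early and stress genes with the higher response in pair A included CEBPB, a partner of NF-κB at acute phase genes, with 3.26, 3.29, 1.09 and 0.61, and ATF3, with 2.50, 2.34, 0.20 and 0.00. XBP1, the factor that expands the secretory pathway, responded by 1.83, 1.79, 0.44 and 0.34, and TRIB3 by 1.29, 1.05, -0.21 and -0.30. HMGCS1, an enzyme of cholesterol synthesis, responded by 2.11, 2.34, 0.86 and 1.07. In SLC7A5, an amino acid transporter, the responses were -0.91, -1.46, 0.42 and 0.81, the higher ones in pair B.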
